A study of Mus musculus with 33 samples.

Results

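The 336 Zfp loci described here were the protein-coding gene records of GENCODE vM1 on chromosomes 1 to 19 of the mouse genome build mm9 (NCBIM37) whose name is Zfp followed by digits only, 1 name being left out, and they were 336 of 21418 coding gene records. They carried 332 names, because Zfp664, Zfp319, Zfp708 and Zfp738 each had 2 records. E14 mouse embryonic stem cells (mESC) of WT genotype and Uhrf1 KO mESC were profiled by ChIP-seq, undifferentiated and, for H3K4me3 and H3K27me3, also as embryoid bodies (EB) at week 1, week 2 and week 3. All lines were kept in serum with leukaemia inhibitory factor before differentiation. WT and KO cells came from another group, and neither the labels nor the study's methods say how many KO clones were used, so a line difference cannot be told apart from the deletion. The labels gave 1 library per antibody, genotype and stage, so no spread between replicates could be measured and no p-value is given. H3K9me3, Oct4, Sox2 and Nanog were measured in mESC of both genotypes, and Uhrf1 in WT mESC alone. A promoter was scored for H3K4me3 within 2 kb of the annotated start and for H3K27me3 within 5 kb, and the gene body was scored for H3K9me3 domains and for 10 kb windows enriched in Uhrf1. A gene counted as having a mark when at least 1 bp of that window or body lay in a region of the deposited list.

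Zfp genes encode proteins with zinc fingers, most of them C2H2 fingers that bind DNA. Many begin with a KRAB domain, which recruits Trim28 (KAP1), and with it the H3K9 methyltransferase Setdb1 and HP1 proteins, to the DNA that the fingers recognise, often retroelements. These genes arose by local duplication and lie in clusters, and clusters of this family are known to carry H3K9me3 themselves. H3K4me3 marks active or poised promoters, H3K27me3 is laid down by Polycomb, and a promoter with both is called bivalent. Uhrf1 binds hemimethylated DNA and H3K9 methylation and brings Dnmt1 to replicated DNA.

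The sequences of these loci are shown here for 2 features. Zinc finger exons repeat themselves: the most frequent 13-base word in the coding sequences of Zfp genes was ACTGGAGAGAAAC, which lies in the linker between fingers. Counted on both strands, it was present in the bodies of 109 of 336 Zfp genes (32.4%) and in 1.42% of all coding genes, a difference that follows from how the word was chosen. It was present in 51.1% of the 174 Zfp genes whose translated sequence held a KRAB-like motif and in 12.3% of the 162 without one. The coding stretches of Zfp825 (chr13:74618215-74618414 on the minus strand) and Zfp709 (chr8:74413453-74413652 on the plus strand) are shown 5′ to 3′ because both genes had H3K4me3 and H3K9me3 in both genotypes, with the word in capitals. In both stretches the word recurred after 84 bases, the length of 1 finger and linker.
Zfp825: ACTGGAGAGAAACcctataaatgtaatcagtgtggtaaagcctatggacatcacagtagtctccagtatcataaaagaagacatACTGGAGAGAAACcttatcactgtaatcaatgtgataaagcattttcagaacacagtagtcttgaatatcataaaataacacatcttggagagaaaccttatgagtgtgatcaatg
Zfp709: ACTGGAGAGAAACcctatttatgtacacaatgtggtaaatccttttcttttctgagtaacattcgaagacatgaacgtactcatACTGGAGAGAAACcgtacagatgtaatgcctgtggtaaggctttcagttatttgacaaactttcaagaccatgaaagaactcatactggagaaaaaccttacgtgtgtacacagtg
The other feature was the CG content of the start. Over the 300 bases from 250 before to 50 after the annotated start, Zfp genes held a median of 13 CG dinucleotides (quartiles 6 and 21), and all coding genes 12 (quartiles 3 and 23). KRAB-like Zfp genes held a median of 9 and the other Zfp genes 18. At least 1 CG was present at 98.5% of Zfp starts and at 95.1% of all coding starts. The 200 bases before the start are shown 5′ to 3′ with each CG in capitals for 3 genes that had H3K4me3 at the start and H3K9me3 in the body in both genotypes: Zfp882 (chr8:74432307-74432506 on the plus strand), Zfp747 (chr7:134519565-134519764 on the minus strand) and its neighbour Zfp764 (chr7:134550337-134550536 on the minus strand). Beside them stand Zfp735 (chr11:73502080-73502279 on the plus strand) and Zfp534 (chr4:147076663-147076862 on the minus strand), which had H3K4me3 in no list. None of the 5 windows overlaps an annotated exon.
Zfp882 upstream: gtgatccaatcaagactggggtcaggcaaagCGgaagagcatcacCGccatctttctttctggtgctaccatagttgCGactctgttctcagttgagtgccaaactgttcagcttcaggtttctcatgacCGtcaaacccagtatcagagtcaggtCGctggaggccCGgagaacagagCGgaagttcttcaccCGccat
Zfp747 upstream: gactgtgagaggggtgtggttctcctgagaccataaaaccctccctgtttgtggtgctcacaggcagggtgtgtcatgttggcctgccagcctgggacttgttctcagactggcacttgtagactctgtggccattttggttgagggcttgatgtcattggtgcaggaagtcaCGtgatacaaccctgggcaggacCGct
Zfp764 upstream: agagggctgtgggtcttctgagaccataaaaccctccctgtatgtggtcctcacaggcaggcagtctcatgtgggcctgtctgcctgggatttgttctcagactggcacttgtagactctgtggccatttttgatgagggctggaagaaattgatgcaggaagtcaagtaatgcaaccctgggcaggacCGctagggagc
Zfp735 upstream: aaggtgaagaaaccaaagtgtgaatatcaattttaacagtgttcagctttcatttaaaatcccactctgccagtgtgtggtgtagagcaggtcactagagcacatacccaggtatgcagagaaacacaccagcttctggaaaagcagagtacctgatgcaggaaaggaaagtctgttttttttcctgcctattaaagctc
Zfp534 upstream: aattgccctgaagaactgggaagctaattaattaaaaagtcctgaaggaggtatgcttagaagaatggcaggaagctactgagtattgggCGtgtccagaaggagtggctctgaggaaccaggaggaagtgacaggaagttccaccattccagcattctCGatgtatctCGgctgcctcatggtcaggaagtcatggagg
Zfp882 held 8 CG in these 200 bases, Zfp747 2, Zfp764 1, Zfp735 0 and Zfp534 3. Over the 300 bases from 250 before to 50 after the start the counts were 10, 8, 6, 2 and 3. This order did not hold for other genes named below. With H3K4me3 and H3K9me3 in both genotypes, Zfp617 held 11 CG there, Zfp709 3 and Zfp825 1. With H3K4me3 in no list, Zfp831, Zfp541 and Zfp97 each held 5.

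The lists themselves differed in ways that touch every count. The WT mESC H3K9me3 list held 11285 domains over 987.6 Mb, and the KO list 3118 domains over 1085.9 Mb, with median lengths of 37.8 kb and 140.4 kb. For H3K27me3 the WT mESC list covered 959.7 Mb and the KO mESC list 84.1 Mb in 722 domains. Chromosomes 8 and 11 stood apart: the WT mESC H3K9me3 domains covered 81.0% of chromosome 8 and 76.2% of chromosome 11, against 16.6% to 46.9% of the other autosomes, and the KO domains covered 30.6% and 96.3%, against 14.2% to 58.5%. WT H3K27me3 domains also covered 64.1% of chromosome 8 in mESC, where the other autosomes apart from chromosome 11 reached at most 45%. At least 1 of these chromosomes was covered more than every other autosome in all 18 histone lists, and both were in 12, KO week 3 EB H3K27me3 among them (48.7% and 41.3%, others at most 19.3%). These chromosomes held 26 and 17 of the 336 Zfp genes, so counts are also given without them where it matters, and the part that these chromosomes played in other results was not tested. H3K4me3 was present at the annotated start of Pou5f1, Sox2, Nanog and Klf4 and absent from that of Esrrb in WT mESC, and at 3 to 4 of these 5 starts in the WT EB lists, so the check did not separate the stages. Uhrf1 itself had H3K4me3 at its start in all 8 H3K4me3 lists, which neither shows nor contradicts a deletion further into the gene. Intervals are Wilson 95% intervals over genes: they cover counting error only, and Zfp genes that share a domain are not independent.

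**Figure D1:**
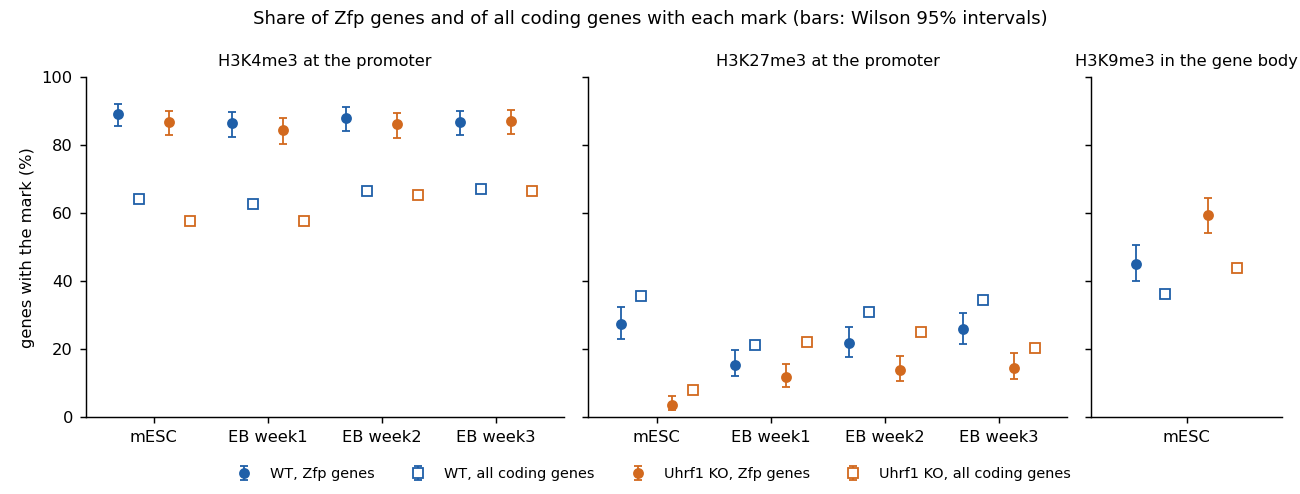
The y axes give the percentage of genes with H3K4me3 within 2 kb of the start, H3K27me3 within 5 kb or H3K9me3 in the body, for Zfp genes (circles) and all coding genes (squares) in WT (blue) and Uhrf1 KO (orange), by stage, with Wilson 95% intervals. Zfp genes lie above all coding genes for H3K4me3 in each of the 8 lists and for H3K9me3 in both genotypes, and below them for H3K27me3 in each of the 8 lists.

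Most Zfp promoters carried H3K4me3 at every stage in both genotypes. In WT the mark was present at 300 of 336 Zfp starts in mESC (89.3%, 95% interval 85.5 to 92.2), 291 in week 1 EB, 296 in week 2 EB and 292 in week 3 EB. Among all coding genes the WT shares were 64.1%, 62.8%, 66.4% and 67.0%. In KO the Zfp counts were 292, 284, 290 and 293, from mESC to week 3, and the shares of all coding genes were 57.8%, 57.7%, 65.3% and 66.6%. Of the Zfp genes marked in WT, 286 of 300 (95.3%, 92.3 to 97.2) were also marked in KO mESC, beside 88.1% of the marked coding genes. The longer list of each pair, WT at every stage but week 3 EB, was then cut by score to equal covered length. H3K4me3 was then present at 272, 175, 252 and 292 Zfp genes in WT. In KO it was present at 292, 284, 290 and 292, so KO was lower at no stage. The kept shares in EB with the full lists were 96.6%, 96.6% and 98.3% for Zfp genes and 90.1%, 94.9% and 96.3% for all coding genes, from week 1 to week 3. H3K4me3 was present in all 8 lists at 268 Zfp genes (79.8%) and at 51.1% of all coding genes, and in no list at 23 Zfp genes (6.85%) and 26.3% of all coding genes. This was not particular to Zfp genes: 15 of 18 Zscan and Zkscan genes (83.3%) and 25 of 31 Zbtb genes (80.6%) had it in all 8 lists. Of 130 KRAB-like coding genes with other names, 38.5% did.

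The 23 Zfp genes without H3K4me3 in any list had few CG dinucleotides at their start. Their median was 2 in 300 bases (quartiles 2 and 3), against 15 (quartiles 9 and 22) for the 268 genes marked in all 8 lists and 5 (quartiles 3 and 15) for the 45 marked in 1 to 7 lists. The ratio of observed to expected CG had medians of 0.174, 0.677 and 0.309 in these 3 sets. Of the 5 longest of the 23, Zfp831 (chromosome 2, 67.3 kb), Zfp735 (chromosome 11) and Zfp541 (chromosome 7), a gene known for its expression in the testis, had H3K27me3 at the promoter in WT mESC. Zfp541 kept H3K27me3 in KO mESC, and Zfp831 and Zfp735 did not have it there. Zfp534 (chromosome 4) and Zfp97 (chromosome 17) had neither promoter mark in any list.

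Where H3K4me3 was present, the mean read count of its domain placed KRAB-like Zfp genes high among marked genes in EB. In WT week 2 EB the median over 149 KRAB-like Zfp genes was 21.5 reads per bin (range 6.32 to 54.5), over the 147 other Zfp genes 18.2, and over all 14223 marked coding genes 15.7. The KRAB-like median stood at percentile 81.4 of all marked genes there, at 82.2 in KO week 3 EB, at 56.2 in WT mESC and at 42.9 in KO mESC. Bins were 1300 bp wide in the mESC H3K4me3 lists and 350 or 400 bp wide in the EB lists, and the study's methods scale ChIP-seq counts to the mapped total without saying whether this holds for the listed means, so these counts are ranked within a list and not compared between lists.

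H3K27me3 was less frequent at Zfp promoters than at coding genes as a whole in each list, and few of them were listed with it in KO mESC. In WT it was present at 92 Zfp promoters in mESC (27.4%, 22.9 to 32.4), 52 in week 1 EB (15.5%), 73 in week 2 EB (21.7%) and 87 in week 3 EB (25.9%). The same shares over all coding genes were 35.7%, 21.2%, 30.9% and 34.6%. In KO the Zfp counts were 12 (3.57%), 40 (11.9%), 47 (14%) and 49 (14.6%), and the shares of all coding genes 7.90%, 22.0%, 25.1% and 20.3%. Of the 92 Zfp genes with the mark in WT mESC, 11 kept it in KO (12%, 6.81 to 20.2), beside 15.8% of all such coding genes. In EB the kept counts were 28 of 52, 22 of 73 and 39 of 87 (53.8%, 30.1% and 44.8%), beside 72.6%, 49.1% and 50% of all coding genes with the mark in WT. The low mESC count came with the short KO list named above. Its domains at the 12 KO Zfp promoters had a median of 0.787 reads per bin (0 to 1.73). Over all marked coding genes its median was 0.803, near the floor of the counts. The WT mESC medians were 5.57 and 5.23, in counts whose scaling between lists is not stated. For equal covered length only the WT list was cut by score, from 959.7 Mb to at most the 84.1 Mb of the KO list. That left 4 Zfp genes with H3K27me3 in WT and 12 in KO, and 0 and 10 were bivalent. The direction thus turned, but a cut of 1 list cannot tell which direction holds. At equal length the direction turned in the same way in week 2 EB (5 and 47) and week 3 EB (32 and 49), where again only the WT list was cut.

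Most bivalent Zfp promoters of WT mESC were listed with H3K4me3 alone in KO mESC, where the H3K27me3 list was short and low in counts. Bivalent promoters numbered 81 in WT mESC (24.1%), 49 in week 1 EB (14.6%), 60 in week 2 EB (17.9%) and 74 in week 3 EB (22.0%), where all coding genes had 18.9%, 15.8%, 14.2% and 20.3%. In KO they numbered 10 (2.98%), 34 (10.1%), 40 (11.9%) and 42 (12.5%), beside 4.48%, 11.1%, 14% and 11.8% of all coding genes. Of the 81, 64 (79.0%, 68.9 to 86.5) were active in KO mESC, meaning with H3K4me3 alone, 9 stayed bivalent, 7 had no mark and 1 had H3K27me3 alone. Among all coding genes bivalent in WT mESC, 60.5% were active and 14.8% bivalent in KO. KRAB-like and other Zfp genes were bivalent at the same share in WT mESC, with 42 of 174 and 39 of 162 (both 24.1%). Without chromosomes 8 and 11, 60 of 293 Zfp genes (20.5%) had both promoter marks in the WT mESC lists, and 5 (1.71%) in the KO ones.

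**Figure D2:**
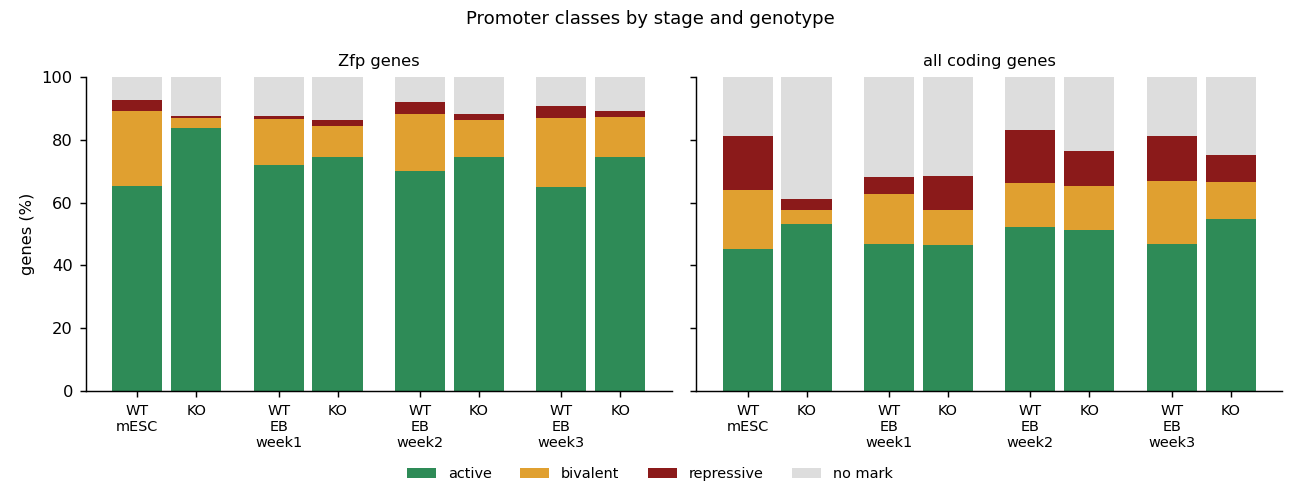
Stacked bars give the percentage of Zfp genes (left) and of all coding genes (right) with an active (H3K4me3 alone), bivalent (both marks), repressive (H3K27me3 alone) or unmarked promoter, for WT and KO at each stage. Among Zfp genes the active class is 65.2% in WT mESC and 83.9% in KO mESC, and the bivalent class is smallest in KO mESC, at 2.98%.

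Of the 336 Zfp genes 18 were bivalent in all 4 WT stages, beside 6.08% of all coding genes, and 2 were bivalent in all 8 pairs of lists, beside 0.714%. With lists of equal covered length none was bivalent in WT mESC, so none was bivalent in all 4 stages. Zfp800 (chromosome 6, 158.1 kb) was bivalent in all 4 WT stages and had neither promoter mark in KO mESC, and its H3K27me3 was present again in the KO lists of week 1, week 2 and week 3 EB. Zfp536, a large neural repressor gene on chromosome 7 (451.1 kb), was bivalent in WT mESC and active in KO mESC, with H3K27me3 in all 3 KO EB lists. Zfp868 and Zfp964, KRAB-like neighbours on chromosome 8, went from both marks in WT mESC to H3K4me3 alone in KO. Of the 2 records of Zfp319, the shorter (chromosome 8, 97846914 to 97849163) had H3K27me3 in all 8 lists, as did Zfp512 and Zfp287, and the longer (97850037 to 97855850) in 4. These 3 were the only Zfp records with it in all 8 lists (0.893%), a lower share than the 2.51% of all coding genes.

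H3K9me3 covered the bodies of more Zfp genes than of coding genes as a whole, and more of them in KO than in WT. In WT mESC 152 of 336 Zfp genes had H3K9me3 in the body (45.2%, 40 to 50.6), beside 36.1% of all coding genes. In KO mESC 200 had it (59.5%, 54.2 to 64.6), beside 43.8%. The KO list was the longer, and the rise was smaller with lists of equal covered length, as given below. It was present in both genotypes at 127 Zfp genes (37.8%) and at 27.2% of all coding genes. Of the 152 WT genes 83.6% (76.8 to 88.6) kept the mark in KO, beside 75.3% of all coding genes, and of the 184 without it in WT 73 (39.7%, 32.9 to 46.9) had it in KO, beside 26.0%. The 152 marked genes lay in 113 WT domains and the 200 in 87 KO domains, so neighbouring genes often shared 1 domain. Without chromosomes 8 and 11 the shares were 38.9% in WT and 57.7% in KO for Zfp genes, and 31.8% and 39.7% for all coding genes. On chromosome 8 itself 24 of 26 Zfp genes had H3K9me3 in WT and 14 in KO, while on chromosome 11 it was 14 and 17 of 17.

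KRAB-like genes carried most of this H3K9me3. In WT 100 of 174 KRAB-like Zfp genes had it (57.5%, 50 to 64.6) and 52 of 162 others (32.1%, 25.4 to 39.6), and in KO 136 (78.2%, 71.5 to 83.7) and 64 (39.5%, 32.3 to 47.2). With the KO list cut to the covered length of the WT list, the KO counts were 120 KRAB-like genes and 53 others. The total of the others was then near that of WT. Without chromosomes 8 and 11 the same shares were 52.6% and 23.7% in WT, and 76.6% and 36.7% in KO. Of the KRAB-like genes marked in WT, 94 of 100 kept the mark in KO and 6 did not, and 42 of the 74 unmarked ones had it in KO. The other Zfp genes changed more: with the same full lists 33 of their 52 marked genes kept it (63.5%), 19 did not, and 31 unmarked ones had it in KO. The 130 coding genes with a KRAB-like motif under other names had H3K9me3 at 50.8% in WT and 56.2% in KO. Sorted by finger number, WT shares were 36.1% for 0 to 4 fingers (n = 61), 36.8% for 5 to 9 (n = 95), 50% for 10 to 14 (n = 116) and 57.8% for 15 or more (n = 64), and KO shares were 39.3%, 53.7%, 69.8% and 68.8%. The intervals of neighbouring finger classes overlapped in WT, and those of the lowest and highest classes (25.2 to 48.6 and 45.6 to 69.1) overlapped narrowly. In KO the interval of 0 to 4 fingers (28.1 to 51.9) did not reach that of 15 or more (56.6 to 78.8). KRAB-like Zfp genes held a median of 12 fingers and the others 7. The finger classes were not split by motif, so motif and finger number cannot be told apart here.

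The mark ran over whole genes and not only over their 3′ zinc finger exons. In WT 38.1% of Zfp genes had H3K9me3 within 2 kb of the start and 39.9% within 2 kb of the 3′ end, and in KO 59.2% and 55.7%, while all coding genes had 27.7% and 27.4% in WT and 40.8% and 39.3% in KO. For KRAB-like Zfp genes the WT shares were 49.4% at the start (42.1 to 56.8) and 55.7% at the 3′ end (48.3 to 62.9), and the KO shares 78.2% and 75.9%. Both windows were scored on the same genes, so these intervals do not measure the difference between start and end, which was not tested. The whole body lay in H3K9me3 at 105 Zfp genes in WT (31.2%) and 183 in KO (54.5%), beside 19.8% and 35.2% of all coding genes. Domains were resolved in bins of 1800 bp, which limits what can be seen inside a gene of a few kb.

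**Figure D3:**
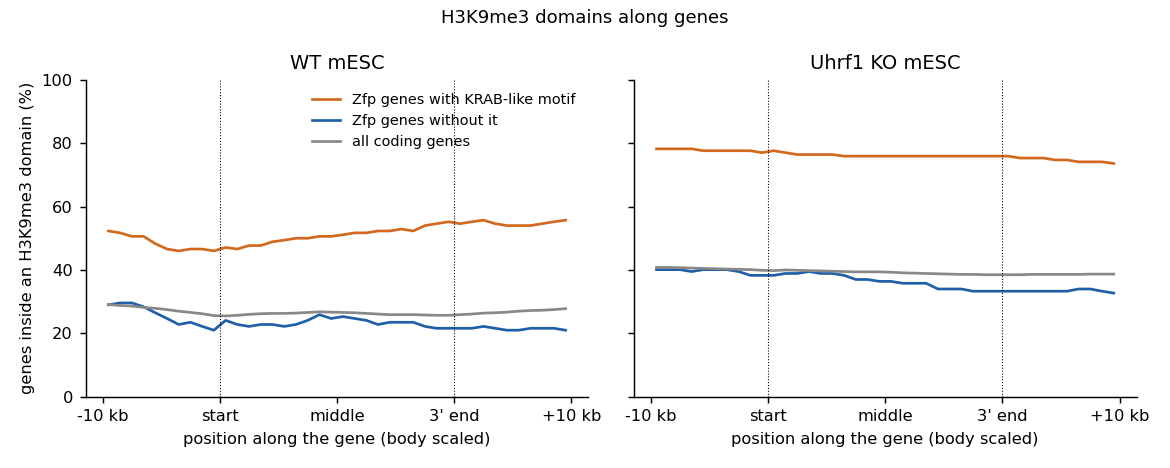
The y axes give the percentage of genes whose position lies inside an H3K9me3 domain in WT (left) and Uhrf1 KO mESC (right), along 10 kb before the start, the body scaled to 1 length and 10 kb after the 3′ end. KRAB-like Zfp genes (orange) run between 46.0% and 55.7% in WT and between 73.6% and 78.2% in KO, and the other Zfp genes (blue) between 21.0% and 29.6% and between 32.7% and 40.1%, near all coding genes (grey).

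H3K4me3 at the start stood together with H3K9me3 in the body at 132 Zfp genes in WT mESC (39.3%, 34.2 to 44.6) and 178 in KO mESC (53.0%, 47.6 to 58.2). All coding genes had this combination at 18.3% and 25.2%. It was present in both genotypes at 104 Zfp genes, in WT alone at 28, in KO alone at 74 and in neither at 130. Of the 132 WT genes 78.8% kept it in KO (71.1 to 84.9), beside 65.0% of all such coding genes, and 36.3% of the other Zfp genes had it in KO (30 to 43.1), beside 16.2%. KRAB-like Zfp genes had it at 88 of 174 in WT (50.6%) and 121 in KO (69.5%), and the others at 44 of 162 (27.2%) and 57 (35.2%). With lists of equal covered length it was present at 79 KRAB-like genes in WT and 109 in KO, and at 38 and 47 others. No share of all coding genes is given for the cut lists, so these counts cannot be set against the background. In 95 of the 132 WT genes H3K9me3 lay at both the start and the 3′ end windows, and in 87 it covered the whole body, so both marks were listed over the same promoter in most cases. Since 1 library of many cells was read for each mark, these lists cannot tell both marks on 1 chromosome copy from marks in different cells. Counting H3K9me3 only beyond 2 kb after the start left 126 WT and 173 KO genes, and domains above the median score of each list left 87 and 131.

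Among the 89 Zfp genes with both marks in both genotypes and H3K9me3 over at least 50% of the body in both, the 6 with the highest WT H3K4me3 domain score were all KRAB-like. Most candidates were so too: of the 104 Zfp genes with both marks in both genotypes at any coverage, 79 were KRAB-like. Zfp825 (chromosome 13, 74617965 to 74620391) had a mean H3K4me3 count of 24.7 reads per bin in WT and 16.8 in KO, and a mean H3K9me3 count of 17.4 in WT and 11.8 in KO. Zfp747 and Zfp764 on chromosome 7 shared the same domains, at 14.3 and 10.8 for H3K4me3 and 13.3 and 10.7 for H3K9me3. Zfp709, Zfp882 and Zfp617 on chromosome 8 likewise shared theirs, at 15.3 and 8.08 for H3K4me3 and 21.1 and 12.4 for H3K9me3. The median WT mESC H3K4me3 mean count over the 300 marked Zfp genes was 15.2. A high domain score thus did not always come with a high mean count. The body of each of the 6 lay wholly in H3K9me3 in both genotypes. Zfp747, Zfp709, Zfp882 and Zfp617 also had H3K27me3 in WT mESC and lacked it in KO mESC.

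The combination in WT alone or in KO alone came about in different ways. Of the 4 WT-only genes named by score, all lay on chromosome 8: both records of Zfp319 and Zfp423, a regulator of adipocyte and neuronal differentiation, had no H3K9me3 in KO, while Zfp869 kept H3K9me3 over its whole body and had no H3K4me3 in KO mESC. H3K9me3 covered 9.07% of the 297.8 kb body of Zfp423 in WT. Of the 4 KO-only genes, Zfp184 (chromosome 13), Zfp688 and Zfp689 (chromosome 7) had H3K4me3 in both genotypes and H3K9me3 over 0% of the body in WT and 100.0% in KO. Zfp184 had the highest H3K4me3 mean count of these genes, at 40.6 in WT and 20.5 in KO. Zfp72 (chromosome 13) had H3K9me3 over its whole body in both and H3K4me3 in KO mESC alone, in the same KO domains as Zfp825. Zfp688 and Zfp689 shared their mESC H3K4me3 domains with Zfp747 and Zfp764. H3K4me3 at the start was lost from list to list at 14 Zfp genes in mESC, of which Zfp276, Zfp423, Zfp869 and Zfp930 on chromosome 8 and Zfp639 on chromosome 3 had the highest WT scores, and 4 of these 5 thus lay on a chromosome whose WT lists stood apart.

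**Figure D4:**
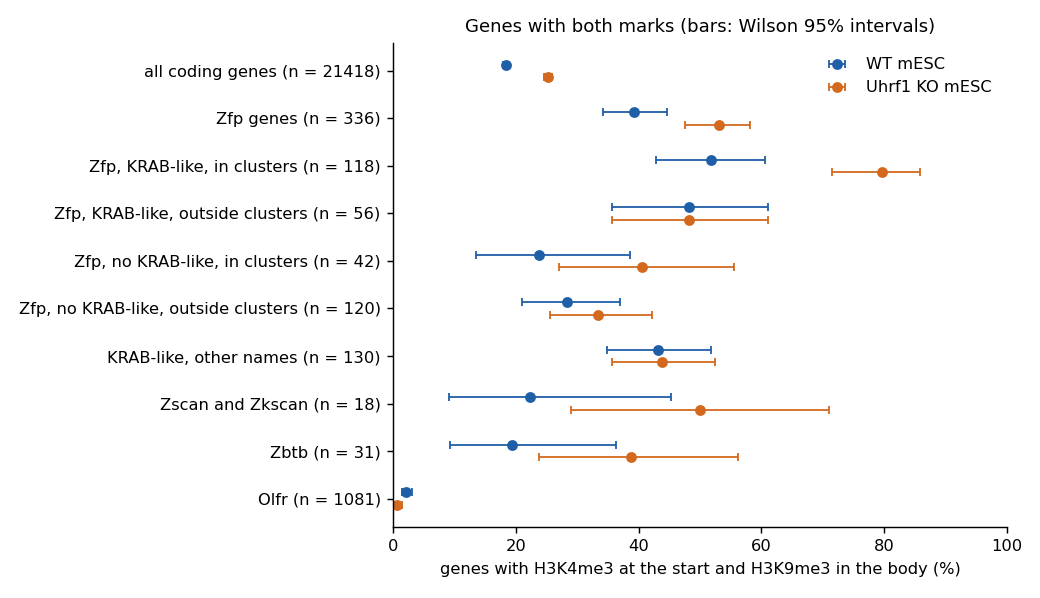
The x axis gives the percentage of genes with H3K4me3 at the start and H3K9me3 in the body in WT (blue) and Uhrf1 KO mESC (orange), with Wilson 95% intervals, for all coding genes, Zfp genes and their subsets, KRAB-like genes with other names and 3 other families. KRAB-like Zfp genes in clusters stand at 51.7% in WT and 79.7% in KO, those outside clusters at 48.2% in both, and Olfr genes at 2.04% and 0.648%.

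Of the 74 KO-only genes, 35 were KRAB-like genes in clusters and 9 were other Zfp genes in clusters. Of the 336 Zfp genes 160 lay in 24 clusters, defined as runs of at least 3 Zfp genes with gaps of at most 250 kb, and 118 of these 160 were KRAB-like. H3K9me3 was present at 76 clustered genes in WT (47.5%) and 116 in KO (72.5%), and at 76 of the 176 others in WT (43.2%) and 84 in KO (47.7%). Among KRAB-like genes the WT shares were 55.1% in clusters (46.1 to 63.8) and 62.5% outside (49.4 to 74.0), and the KO shares 83.1% (75.3 to 88.8) and 67.9% (54.8 to 78.6). Clustered KRAB-like genes lay in 33 WT and 20 KO domains, so this difference rests on few domains. The combination with H3K4me3 was present at 61 and 94 of the 118 clustered KRAB-like genes in WT and KO, and at 27 and 27 of the 56 outside clusters. Without chromosomes 8 and 11 these counts were 50 and 84 of 107, and 22 and 24 of 47.

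The 3 largest clusters had H3K9me3 throughout in KO and differed in WT. The cluster from Zfp712 to Zfp273 (chromosome 13, 67139530 to 67927937) held 19 Zfp genes, 18 of them KRAB-like. It was covered at 55.9% by 7 WT domains and at 100.0% by 1 KO domain, with 10 genes marked in WT and 19 in KO. The cluster from Zfp677 to Zfp946 (chromosome 17, 21520712 to 22593656) held 15 genes, all KRAB-like, covered at 90.3% in WT and 100.0% in KO, and all 15 had H3K9me3 in the body and H3K4me3 at the start in both genotypes. The cluster from Zfp84 to Zfp146 (chromosome 7, 30553571 to 30954746) held 14 genes with 22.0% covered in WT and 100.0% in KO, and 4 and 14 genes marked. All 14 had H3K4me3 at the start in both genotypes. Not every cluster was filled: from Zfp180 to Zfp575 (chromosome 7, 24866943 to 25372660), 9 of 12 genes were KRAB-like, 1 had H3K9me3 in WT and 0 had it in KO, with 5.34% and 0% covered.

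**Figure D5:**
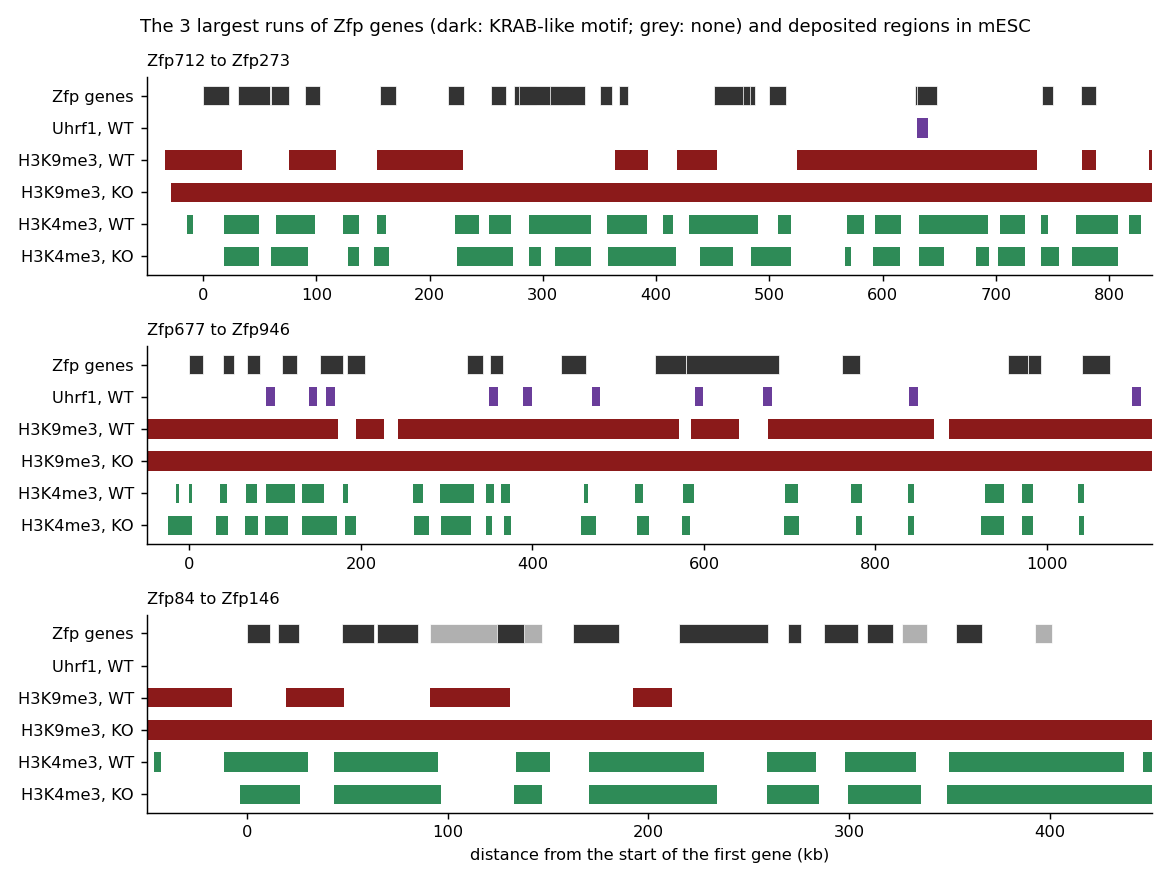
Maps of the 3 largest Zfp clusters, with the distance in kb from the first gene's start on the x axis and rows for Zfp genes (dark where KRAB-like), Uhrf1 windows in WT, and H3K9me3 and H3K4me3 domains in WT and KO mESC. In KO 1 H3K9me3 domain spans each cluster, and H3K4me3 domains recur inside it in both genotypes.

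Uhrf1 windows were present in the bodies of 21 of 336 Zfp genes (6.25%, 4.12 to 9.37), beside 9.28% of all coding genes, so Zfp genes were not above the background. KRAB-like Zfp genes had them at 14 of 174 (8.05%) and the others at 7 of 162 (4.32%), while 52 of the 130 KRAB-like genes with other names had them (40%, 32.0 to 48.6). The 5 Zfp genes with the largest share of the body in Uhrf1 windows, all at 100.0%, were Zfp600, Zfp960, Zfp97, Zfp781 and Zfp640. Zfp600, Zfp97, Zfp781 and Zfp640 had no H3K9me3 in the body and no H3K4me3 at the start in mESC of either genotype. Zfp960 had H3K9me3 over 5.97% of its body in both and H3K4me3 in all 8 lists. Of the 21 genes 14 had H3K9me3 in WT (66.7%, 45.4 to 82.8) and 11 in KO (52.4%), beside 43.8% and 60.0% of the other 315 Zfp genes, and the intervals overlapped. H3K4me3 was present at 14 of the 21 in WT (66.7%) and at 90.8% of the others (87.1 to 93.5). All coding genes split in the same directions in WT, with H3K9me3 at 58.4% of those with Uhrf1 windows and 33.8% of those without, and H3K4me3 at 40.6% and 66.6%. In KO the H3K9me3 direction differed, with 47.8% and 43.4% of all coding genes. H3K4me3 in KO went the same way in both sets, at 57.1% and 88.9% of Zfp genes and 33.7% and 60.3% of all coding genes. Widening the body by 10 kb on both sides brought the count to 39, and asking for at least 50% of the body brought it to 12. The authors kept 1 alignment per read, so reads that match near-identical Zfp copies equally well cannot be assigned to 1 copy.

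Zfp genes with known roles differed in H3K9me3, and most had H3K4me3 in mESC. H3K4me3 was present in all 8 lists at Zfp57 and Zfp445, which protect methylation at imprinted genes, at Zfp568, a repressor of a placental Igf2 transcript, at Zfp809, which silences retroviruses, and at Zfp819 and Zfp932, which have been tied to retroelements. Zfp445 and Zfp809 had H3K9me3 over the whole body in both genotypes, and Zfp57 and Zfp568 over 0% in WT and 100.0% in KO. Zfp819 had none in either, although it lies in a cluster. Zfp932 had H3K9me3 over 100.0% of its body in both genotypes and a Uhrf1 window over 67.9%. Of the 2 records of Zfp708, which binds a class of retroelements, the one at 67170336 on chromosome 13 had H3K9me3 over 13.5% of the body in WT and 100.0% in KO and H3K4me3 in KO mESC alone, and the one at 67199100 had 0% and 100.0% and H3K4me3 in 7 lists.

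Among the transcriptional regulators outside the KRAB group, some promoters were active in all 8 pairs of lists and others had H3K27me3. Zfp281, a pluripotency-related factor, Zfp217 and Zfp143, a promoter-binding factor, had H3K4me3 in all 8 lists and H3K27me3 in none, with H3K9me3 over 0%, 0% and 48.0% of the body in WT and 100.0% in KO. Zfp462, whose loss affects heterochromatin in mESC, had H3K9me3 over 9.10% of the body in WT and 100.0% in KO. Zfp521, known in neural and blood progenitors, was bivalent in WT mESC and active in KO mESC with no H3K9me3. The NET family genes Zfp703 and Zfp503 also had both marks in WT mESC and H3K4me3 alone in KO. Zfp503 had H3K27me3 in 7 of 8 lists, and Zfp703, on chromosome 8, had H3K9me3 over its whole body in WT and none in KO. Zfp36, which encodes the RNA-binding protein tristetraprolin and not a DNA-binding C2H2 protein, was active in mESC of both genotypes and had no H3K9me3.

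Pluripotency factor summits were counted within 2 kb of the start. In WT, Oct4 summits were present at 12 Zfp genes (3.57%, beside 5.26% of all coding genes), Sox2 summits at 20 (5.95%, beside 5.01%) and Nanog summits at 1 (0.298%, beside 0.612%), and the background lay within each interval. In KO the counts were 0 for Oct4 (beside 0.107%), 114 for Sox2 (33.9%, beside 28.1%) and 7 for Nanog (2.08%, beside 2.78%). The count of 0 for Oct4 allows a share of up to 1.13% by its interval. In KO, Sox2 summits were present at 40 of 174 KRAB-like Zfp genes (23.0%, 17.4 to 29.8) and at 74 of 162 others (45.7%, 38.2 to 53.4). The deposited summit lists changed in size in the same directions, from 12898 to 576 for Oct4, from 5190 to 20755 for Sox2 and from 2390 to 10632 for Nanog, and what part list size had in these counts was not tested.

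Genes listed for the KRAB zinc finger and H3K9me3 pathway, Kdm4a, Kdm4b and Kdm4c included, mostly had H3K4me3, with H3K9me3 at some of them. Of 19 such genes, among them Trim28, Setdb1, Cbx5 and Dnmt1, 18 had H3K4me3 at the start in each of the 8 lists, beside 51.1% of all coding genes. The exception, Kdm4c, had it in none. None of the 19 had H3K27me3 in any list, and 42.5% of all coding genes likewise had it in no list. H3K9me3 was present in the body of 5 in WT and 9 in KO, beside 36.1% and 43.8% of all coding genes. Both marks stood together at 4 and 8, beside 18.3% and 25.2%, with Setdb1, Cbx3, Cbx5, Ehmt1 and Morc3 in KO alone and Chaf1b in WT alone. In 2 other zinc finger families H3K9me3 was present at 5 of 18 (Zscan and Zkscan) and 7 of 31 (Zbtb) genes in WT, and at 10 and 14 in KO. Both marks stood together at 4 and 6 of these genes in WT and at 9 and 12 in KO. Olfr genes, the olfactory receptor family, which is also clustered, had H3K9me3 at 84.9% in WT and 84.1% in KO but H3K4me3 at 27 and 10 of 1081 starts, and both marks at 22 and 7.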

How the data were processed

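ChIP-seq was read from 25 deposited region lists, 1 per library; the 8 input libraries had no list. Per the submitters' processing notes, the authors aligned reads to mm9 with Bowtie2 2.1.0 and used MACS; per the study's methods, histone domains were called with RSEG, and 1 alignment was kept per read. The deposited domain lists give a mean read count per bin as a signal and a domain score, and the deposited summit lists give the signal at each summit. For Uhrf1 the authors deposited names and positions of 10 kb windows above input, with no other value. The study's methods scale ChIP-seq counts to the mapped total; whether the deposited means carry this scaling is not stated. Read totals, which the study lists by library, were not used here.

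Genes were those of GENCODE vM1. A mark was called at an overlap of at least 1 bp. KRAB-like and finger motifs were searched in translated coding sequences of GENCODE vM1 and not in RefSeq proteins as first planned; the KRAB-like pattern was widened from sequence alone after known KRAB genes had been missed. Counts, Wilson 95% intervals and sequence counts were computed with Python 3.11, numpy 2.4.6, scipy 1.17.1 and Biopython 1.88, and figures with matplotlib 3.10.9; the overlap code was tested on simulated data. With 1 library per group there was no replicate test. WT and KO could be paired by stage for H3K4me3 and H3K27me3, but an exact two-sided sign-flip test over 4 pairs cannot go below p = 0.125, and none was run on counts of genes chosen with results known. The Zfp genes and lists were chosen with earlier results of these data known. Named genes were those with the highest H3K4me3 domain score in the genotype with both marks or that lost H3K4me3, those bivalent in most WT lists, those with most of the body in Uhrf1 windows, the longest without H3K4me3, and 16 names of known role; Zfp512, Zfp287 and the cluster from Zfp180 to Zfp575 were named after their values were seen. Alternatives were wider and narrower windows, any transcript start, 50% coverage, higher scores, lists of equal covered length, H3K9me3 beyond the start window and 10 kb added to the body. For lists of equal covered length the text gives no share of all coding genes beside the Zfp counts. Leaving out chromosomes 8 and 11 was added after seeing the data.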

Additional observations from a re-analysis of the deposited data

Results flagged for a closer look

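The difference in the number of Zfp promoters with H3K4me3 between KO and WT changed sign between stages. KO minus WT was -8 promoters in mESC, -7 in week 1 EB, -6 in week 2 EB and 1 in week 3 EB, out of 336. Over all coding genes it was -1360, -1085, -246 and -101, with no change of sign. With lists of equal covered length the Zfp counts were 272, 175, 252 and 292 in WT and 292, 284, 290 and 292 in KO, so the change of sign depended on list length. With 1 library per genotype and stage, the difference between stages was not tested.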

How the results depend on the processing

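Each of 40 counts was recomputed, giving 267 alternative values, of which 209 lay within 1.5 times the reported one and 58 did not; the cause was not tested. Each group had 1 library, so no replicate numbers pair WT and KO; their pairs by stage are given in the report, untested. KRAB-like Zfp genes exceeded the others in H3K9me3 and in H3K4me3 with H3K9me3, in both genotypes, under each setting run.

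With at least 50% of the window or body covered, H3K27me3 was present at 61, 20, 44 and 47 Zfp genes in WT mESC and week 1 to 3 EB, and at 20 and 30 in KO week 1 and 2 EB; 6, 11, 11 and 24 kept it. Bivalent genes then numbered 51, 15, 27 and 35 in WT, and 6, 12 and 21 in KO mESC and week 1 and 2 EB, and Uhrf1 windows were present at 12. With 10 kb added to the body Uhrf1 windows were present at 39.

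With domains above the median score, H3K27me3 was present at 45 in WT week 2 EB and at 7, 26 and 31 in KO mESC and week 1 and 2 EB, and 5, 16, 12 and 22 kept it from mESC to week 3. Bivalent genes numbered 43, 27, 30 and 43 in WT and 4, 14, 23 and 26 in KO, and H3K4me3 with H3K9me3 was present at 87 in WT and at 54 in both genotypes.

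With lists of equal covered length, H3K4me3 was present at 175 in WT week 1 EB and kept at 171. H3K27me3 was present at 4, 5 and 32 in WT mESC and week 2 and 3 EB and at 14 in KO week 1 EB, and 0, 9, 1 and 18 kept it from mESC to week 3. Bivalent genes numbered 0, 31, 1 and 25 in WT and 10 in KO week 1 EB.

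Without chromosomes 8 and 11, H3K27me3 was present at 7 in KO mESC and 31 in KO week 3 EB, and was kept at 6 and 25. Bivalent genes numbered 5 and 27 in KO mESC and week 3 EB.

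Single libraries, lists of unequal length, bins up to 1800 bp wide and read totals not used here limit these counts: an absent mark was not listed, which does not show that it was absent.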
